A study of Rattus norvegicus with 23 samples.

Results

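The guide strands of the let-7 family and its close relative miR-98 were examined in small RNA from rat sperm. The members were chosen by name from the deposited miRNA table, as every let-7 row of the 5p arm together with miR-98-5p. This gave 9 of 425 miRNA rows, and all 9 passed the filter on low values. The series compared cauda sperm, collected from the storage end of the epididymis, of male Long-Evans rats that breathed filtered air (Air, 7 rats), ozone at 0.4 ppm (8 rats) or ozone at 0.8 ppm (8 rats). Each was exposed 5 times for 4 h, on 3 occasions in week 1 and on 2 in week 2, at measured chamber means of 0.401 and 0.798 ppm for ozone. No genotype difference or transgene is named in the labels, and the sources used here do not give the rats' age. Libraries came from separate rats, so the spread between libraries includes the spread between animals.

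let-7 miRNAs are made from longer transcripts that Drosha and Dicer cut to short duplexes, of which the guide strand is loaded into an Argonaute protein and pairs with target mRNAs through its seed. LIN28 proteins block this processing in stem and germline precursor cells, so mature let-7 accumulates as cells differentiate. Well-known targets include HMGA2, a chromatin protein, and the RAS family of growth signalling proteins.

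All 9 members matched a mature rat miRNA in RefSeq by name, and each is 22 nt long. The sequences are shown because the whole family shares one seed, so the members differ outside it, by 1 to 6 bases for a pair, and counting them separately depends on those bases. Capitals mark bases 2 to 8, the seed, counted from the 5′ end:
let-7a-5p: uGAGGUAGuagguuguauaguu
let-7b-5p: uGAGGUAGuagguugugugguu
let-7c-5p: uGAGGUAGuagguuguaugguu
let-7d-5p: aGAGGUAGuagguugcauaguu
let-7e-5p: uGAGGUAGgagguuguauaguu
let-7f-5p: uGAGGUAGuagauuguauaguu
let-7g-5p: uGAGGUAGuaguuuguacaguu
let-7i-5p: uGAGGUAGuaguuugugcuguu
miR-98-5p: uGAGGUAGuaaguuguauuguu

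Of 693 distinct mature names in the RefSeq table, 9 carried this seed, and these were the 9 members. Against let-7a-5p, with positions counted from 1 at the 5′ end, let-7c-5p differs by A19G, let-7e-5p by U9G and let-7f-5p by G12A. let-7b-5p differs by A17G and A19G, so 1 base separates it from let-7c-5p. let-7d-5p differs by U1A and U16C, let-7g-5p by G12U and U18C, and miR-98-5p by G11A and A19U. let-7i-5p is the most distant, with G12U, A17G, U18C and A19U.

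Several loci make these strands. In the RefSeq annotation of GRCr8, let-7a-5p lies at chr17:16320145-16320166 on the plus strand, in one cluster with a let-7f-5p copy (chr17:16320508-16320529, plus) and let-7d-5p (chr17:16322273-16322294, plus). A second let-7a-5p copy lies at chr8:50805219-50805240 on the plus strand, beside miR-100 and a miR-125b gene. let-7c-5p has a copy at chr7:118683636-118683657 (plus) next to let-7b-5p at chr7:118684044-118684065 (plus), and another at chr11:29688127-29688148 (plus) with miR-99a and miR-125b. let-7e-5p, at chr1:67350243-67350264 (plus), lies between miR-99b and miR-125a within the span of Spaca6, a gene needed for sperm and egg to fuse. The second let-7f-5p copy (chrX:24460052-24460073, plus) and miR-98-5p (chrX:24460663-24460684, plus) lie within Huwe1, a ubiquitin ligase gene. let-7g-5p (chr8:115701026-115701047, plus) lies within the annotated spans of Rpl29 and Wdr82, and let-7i-5p (chr7:60527935-60527956, minus) has no same-strand gene over it in this annotation. Whether each lies in an exon or an intron was not analysed here. The reads were mapped to another build, rn6, so these positions locate the sequences and no value was read by them. For let-7a, let-7c and let-7f the mature strand cannot be traced to one of its copies.

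The let-7a-5p row has a twin. rno-miR-3596a held the same value as let-7a-5p in all 23 libraries, and RefSeq places it on the opposite strand of the chr8 let-7a copy, at chr8:50805219-50805240 (minus). Its sequence is printed here because it is the full complement of let-7a-5p, read in the other direction, with its own bases 2 to 8 in capitals:
miR-3596a: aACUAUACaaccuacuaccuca

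All 6 pairs of identical rows in the table were such opposite-strand pairs. Reads from the 2 strands could therefore not be told apart at these places, and the let-7a-5p reads stand in the table total more than once. miR-3596a is not counted among the members, its value is not added to let-7a-5p, and shares of the table are given as deposited unless stated.

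The libraries held 213839 to 1286613 recovered miRNA reads (median 628271), and the members together held 26218 to 92107 reads of a library. The library totals are sums over all rows as deposited, so reads of the identical rows count more than once. Even in the shallowest library, 0.8 ppm replicate 5, the members held 12.3% of this total, with a 95% Wilson interval of 12.1% to 12.4%. With the repeated rows left out of the table the share was 12.5%, above that interval. Wilson intervals cover counting error only. Germ-cell markers were abundant in the labelled tissue, and the 6 miR-34 and miR-449 rows present of 8 listed held 23.6% to 51.3% of the table. Markers of other cells were present too. The leukocyte list held 1.75% to 6.43%, the muscle and stroma list 1.53% to 11.3%, the epithelial list 0.68% to 3.21% and the erythroid list 0.0107% to 0.205%. The leukocyte and the stroma shares each rested mostly on 1 row: miR-146b-5p averaged 16977, against 4.91 for miR-223-3p and 3.49 for miR-142-3p, and miR-143-3p averaged 16781, against 48.6 for miR-145-5p and 18.8 for miR-1-3p. In bulk RNA, fewer cells of a type and less RNA per cell cannot be told apart.

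A few libraries stood apart. Over 113 miRNAs outside the family, 0.4 ppm replicate 5, 0.8 ppm replicate 7 and 0.8 ppm replicate 5 were least like the rest, with median Pearson r to the other libraries of 0.922, 0.938 and 0.939 against 0.969 for the median library. Separately, 4 libraries had far higher let-7a-5p than the other 19, namely 0.4 ppm replicates 5 and 3, Air replicate 6 and 0.8 ppm replicate 7. Both sets were chosen after their values were seen.

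The family was among the abundant sperm miRNAs. Summed, the 9 guide strands made up 8.8% ± 2.38 of all miRNA signal (SD over 23 libraries), and the extremes were 5.18% and 12.8%. Without the 6 repeated rows the share was 8.99% ± 2.47. let-7a-5p had the highest mean normalised read count, at 12093 ± 5359 (SD, n = 23), followed by let-7c-5p at 11434 ± 5465 and let-7f-5p at 9509 ± 3056. let-7g-5p averaged 7409 ± 1194, let-7i-5p 5729 ± 1871 and let-7b-5p 4228 ± 2457. The remaining members were scarcer, with let-7d-5p at 1746 ± 560.0, miR-98-5p at 662 ± 268 and let-7e-5p at 607 ± 346. All members are of one length, so these levels can be set side by side without a correction for length, although ligation and amplification can still favour some sequences.

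For most neighbours in that order the mean log2 ratio lay within 1 SD of 0, the SD being that of single libraries. The exceptions were at the lower levels. let-7b-5p was above let-7d-5p in 23 of 23 libraries, by a log2 ratio of 1.09 ± 0.57 (SD), and let-7d-5p was above miR-98-5p in 23 of 23, by 1.43 ± 0.24. let-7a-5p exceeded let-7c-5p in 15 of 23 libraries, with a log2 ratio of 0.15 ± 0.68, and let-7c-5p exceeded let-7f-5p in 12 of 23. The order held in more libraries further down: let-7f-5p exceeded let-7g-5p in 18 of 23 (0.32 ± 0.40), let-7g-5p exceeded let-7i-5p in 16 (0.43 ± 0.63) and let-7i-5p exceeded let-7b-5p in 21 (0.62 ± 0.69). At the low end, miR-98-5p exceeded let-7e-5p in 14 of 23. No pair of neighbours except those on either side of let-7d-5p kept its order in every library.

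**Figure D1:**
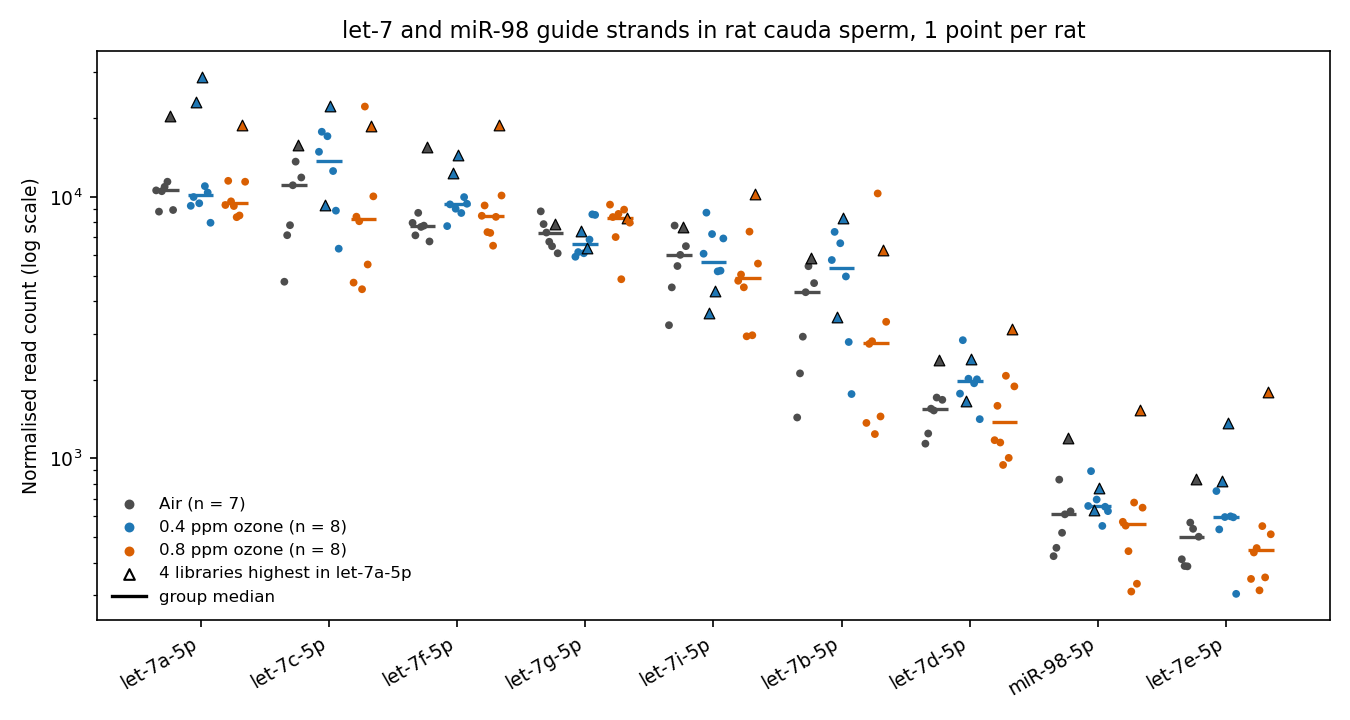
Normalised read count (log scale) of each of the 9 guide strands, ordered by mean, with 1 point per rat and a bar at each group's median. Triangles mark the 4 libraries highest in let-7a-5p, which also lead in let-7e-5p and let-7f-5p; the 3 groups overlap for every member.

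let-7b-5p and let-7c-5p, which share a locus and differ by 1 base, varied most among rats. In Air, let-7b-5p ran from 1434 to 5813 with a median of 4320. At 0.4 ppm it ran from 1763 to 8301 with a median of 5349, and at 0.8 ppm from 1239 to 10304 with a median of 2774. The groups overlapped, and the highest and the lowest library were both from the 0.8 ppm group. let-7c-5p ran from 4737 to 15849 in Air (median 11075), from 6337 to 22192 at 0.4 ppm (median 13711) and from 4435 to 22146 at 0.8 ppm (median 8234). Its ranges overlapped as well, and its lowest and its 2 highest libraries were all from ozone rats. The SD of log2(value + 1) over 23 libraries was 0.90 for let-7b-5p and 0.72 for let-7c-5p. Among the 123 miRNAs with a mean of at least 100, whose median SD was 0.46, 97.6% varied less than let-7b-5p and 91.9% less than let-7c-5p.

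let-7g-5p was the steadiest. It ran from 6086 to 8803 in Air (median 7304), from 5902 to 8574 at 0.4 ppm (median 6611) and from 4843 to 9339 at 0.8 ppm (median 8332). The groups overlapped, and 3 of 8 libraries at 0.8 ppm lay above the whole 0.4 ppm range and 7 of 8 above its median, while 1 at 0.8 ppm, replicate 5, lay below it. Its SD on the log2 scale was 0.24, and 7.32% of the 123 abundant miRNAs varied less. Its highest library stood 1.93-fold above its lowest, against 8.31-fold for let-7b-5p.

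let-7a-5p and let-7f-5p varied through a few libraries. let-7a-5p ran from 8781 to 20439 in Air (median 10586), from 7961 to 28822 at 0.4 ppm (median 10187) and from 8363 to 18785 at 0.8 ppm (median 9460). The 3 medians lay close together, while 4 libraries at 18785 to 28822 stood above the other 19, which ended at 11516. let-7f-5p, which has a copy in the same chr17 cluster, ran from 6753 to 15541 in Air (median 7761), from 7730 to 14410 at 0.4 ppm (median 9386) and from 6506 to 18894 at 0.8 ppm (median 8426). Those 4 libraries also held the 4 highest values of let-7f-5p, at 12388 to 18894 against at most 10120 elsewhere. They held the 4 highest of let-7e-5p too, at 823 to 1793 against at most 750.4. let-7b-5p and let-7g-5p had none of these 4 libraries above all others, let-7c-5p, let-7d-5p and let-7i-5p had 1 each, and miR-98-5p had 2.

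The remaining members overlapped between groups in the same way. let-7i-5p ran from 3231 to 7767 in Air (median 6001), from 3613 to 8702 at 0.4 ppm (median 5642) and from 2930 to 10216 at 0.8 ppm (median 4912). let-7d-5p had medians of 1549, 1972 and 1382 in the same order, with extremes of 944 and 3117, both at 0.8 ppm. miR-98-5p had medians of 611, 656 and 563, and let-7e-5p of 502, 599 and 446. For let-7d-5p, let-7e-5p and miR-98-5p, 7 of 8 libraries at 0.4 ppm lay above the Air median.

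The make-up of the family varied widely among rats of one group. let-7a-5p made up 22.9% ± 2.97 of the summed guide strands in Air, 22.4% ± 7.91 at 0.4 ppm and 22.03% ± 3.79 at 0.8 ppm (SD; n = 7, 8 and 8). let-7c-5p made up 20.01% ± 4.82, 22.7% ± 5.98 and 19.0% ± 7.41, and let-7g-5p 15.2% ± 4.49, 12.6% ± 4.15 and 17.3% ± 6.4. Single libraries ranged from 11.7% to 35.3% for let-7c-5p and from 7.14% to 24.4% for let-7g-5p. Group means of these shares differed by less than the SD within at least one of the groups compared, for all 3 members.

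**Figure D2:**
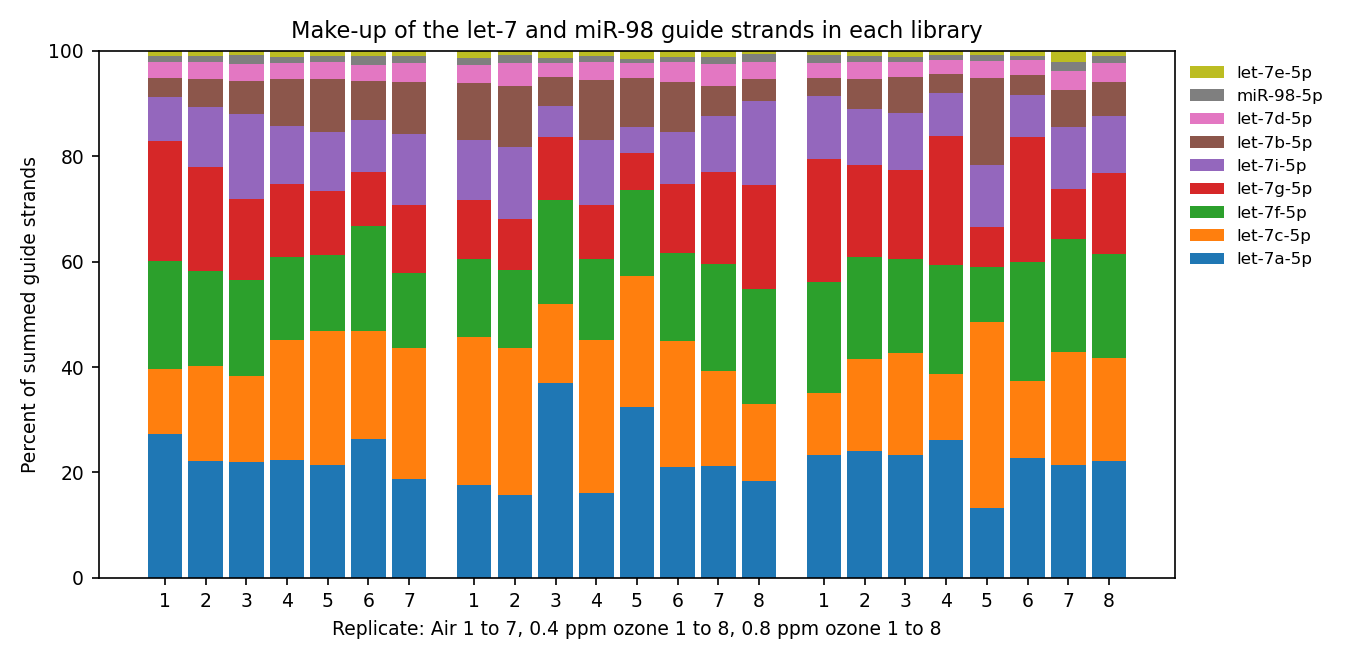
Percent of the summed 9 guide strands held by each member, with 1 bar per library in the Air, 0.4 ppm and 0.8 ppm groups. The let-7c-5p band spans 11.7% to 35.3% of a library and the let-7g-5p band 7.14% to 24.4%, and wide and narrow bands occur in all 3 groups.

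The question of the series, whether inhaled ozone changes sperm small RNA, was put to each member in a limma fit over all 407 miRNAs tested. At 0.4 ppm against Air, 8 of 9 members had a positive log2 fold change, with a median of 0.23, beside a median of -0.02 and 48.2% positive over all miRNAs. The members are not independent of each other, here and in the comparisons below, since 15 of their 36 pairs had r of at least 0.7 across libraries. Among the 8, let-7i-5p stood at 0.016 ± 0.24 (SE). let-7b-5p stood at 0.42 ± 0.41 (SE), let-7c-5p at 0.40 ± 0.32, let-7e-5p at 0.36 ± 0.29 and let-7d-5p at 0.33 ± 0.23. let-7g-5p stood at -0.07 ± 0.16. No member passed (0 of 9; limma adjusted p from 0.812 to 0.988), and 0% of all miRNAs were called. At an unadjusted p under 0.05 there were 0 members and 22 of the 407 miRNAs. edgeR's quasi-likelihood test and DESeq2, both on recovered reads, and the exact Wilcoxon rank-sum test also called 0 miRNAs. With groups of this size a single miRNA cannot pass the adjusted Wilcoxon test, however fully it separates them. A 0 from that test, here and in the comparisons below, therefore carries little weight.

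Some of these values depended on reads or on 1 library. With log2 reads as a covariate, let-7b-5p moved from 0.42 to -0.030 and let-7c-5p from 0.40 to 0.055, while without 0.4 ppm replicate 5 let-7a-5p moved from 0.13 to -0.040 and let-7e-5p from 0.36 to 0.20. Without Air replicate 1 let-7b-5p stood at 0.21 and let-7c-5p at 0.23.

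At 0.8 ppm against Air the members lay near 0. let-7b-5p had the lowest log2 fold change, -0.28 ± 0.41 (SE), and let-7g-5p the highest, 0.10 ± 0.16, with a median over the 9 of -0.10 and 2 positive. All miRNAs had a median of 0.01, with 51.1% positive. limma called 0 of 9 members (adjusted p = 0.993 for each) and 0% of all miRNAs, with 0 members and 9 of 407 miRNAs at an unadjusted p under 0.05. edgeR, DESeq2 and the exact Wilcoxon test called 0 as well. The 95% interval for let-7c-5p ran from -0.79 to 0.51, and that for let-7g-5p from -0.23 to 0.44, so changes of let-7c-5p inside its interval could not be told from none. Without the 3 least alike libraries let-7b-5p stood at -0.79 and let-7c-5p at -0.55 (limma adjusted p = 0.422 for both). Single libraries moved these values too: let-7b-5p stood at -0.55 without 0.8 ppm replicate 5 and at -0.11 without 0.8 ppm replicate 4, and let-7c-5p at -0.34 and -0.0052.

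The widest values lay between the 2 ozone levels. At 0.8 ppm against 0.4 ppm, let-7b-5p had a log2 fold change of -0.70 ± 0.40 (SE), let-7c-5p of -0.54 ± 0.31 and let-7d-5p of -0.39 ± 0.22, the last with the lowest unadjusted p of the family, 0.082. let-7g-5p was the single positive member, at 0.17 ± 0.16. The median over the 9 was -0.28, beside 0.02 over all miRNAs. limma again called 0 of 9 members (adjusted p from 0.729 to 0.881) and 0% of all miRNAs, with 0 members and 15 of 407 miRNAs at an unadjusted p under 0.05. edgeR, DESeq2 and the exact Wilcoxon test called 0. With log2 reads as a covariate let-7b-5p stood at -0.29, let-7c-5p at -0.23 and let-7d-5p at -0.24 (limma adjusted p = 0.974 for each). Without the 3 least alike libraries let-7b-5p stood at -1.08 and let-7c-5p at -0.84 (limma adjusted p of let-7c-5p = 0.0757, as for let-7d-5p at -0.61), the lowest adjusted p of any member under any setting tried.

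A straight line through 0, 0.4 and 0.8 ppm gave the same count. limma called 0 of 9 members (adjusted p from 0.994 to 0.996) and 0% of all miRNAs, with 0 members and 9 of 407 miRNAs at an unadjusted p under 0.05, and edgeR and DESeq2 called 0. Slopes ran from -0.39 ± 0.53 (SE) per ppm on the log2 scale for let-7b-5p to 0.13 ± 0.21 for let-7g-5p. The comparisons share samples, so a member's values in them are not independent of each other.

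**Figure D3:**
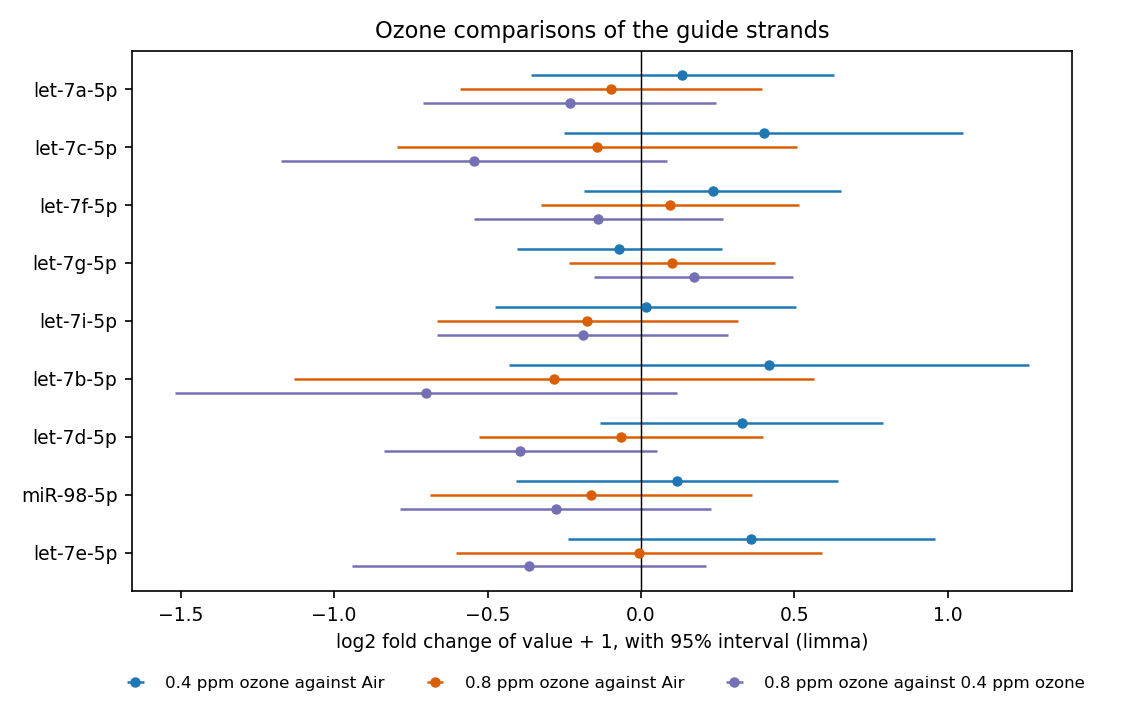
Log2 fold change of each guide strand with its 95% interval (limma, log2(value + 1)) for 0.4 ppm against Air, 0.8 ppm against Air and 0.8 ppm against 0.4 ppm. Every interval includes 0; let-7b-5p and let-7c-5p have the widest and let-7g-5p the narrowest.

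As a share of the miRNA table, the summed family stood at 8.01% ± 1.82 in Air, 10.1% ± 1.79 at 0.4 ppm and 8.21% ± 2.97 at 0.8 ppm (SD; n = 7, 8 and 8). Air libraries ran from 6.24% to 11.6% with a median of 7.89%. Those at 0.4 ppm ran from 7.16% to 12.2% (median 10.3%) and those at 0.8 ppm from 5.18% to 12.8% (median 6.98%). The 0.8 ppm group thus held both the lowest and the highest library. The mean at 0.4 ppm was 2.06 percentage points above Air, with 2 of 8 libraries above the Air range, and the mean at 0.8 ppm was 0.197 points above Air. Leaving out single rats moved this last difference between -0.464 and 0.796 points. Without the 3 least alike libraries the mean at 0.8 ppm was -1.25 points from Air and -3.02 from 0.4 ppm, against -1.87 from 0.4 ppm with all libraries. The germ-cell list moved the other way, at 42.6%, 35.6% and 41.7% of the table in Air, 0.4 ppm and 0.8 ppm, and the epithelial list stood at 1.13%, 1.77% and 1.27%. With the germ-cell list taken out of the table, the family's share was 13.8% in Air, 15.6% at 0.4 ppm and 13.7% at 0.8 ppm. The mean at 0.4 ppm was then 1.77 points above Air, and that at 0.8 ppm was -0.107 points from it. These points are of a smaller table, so they are not on the scale of the 2.06 points above. The part of the epithelial list was not tested. Shares of one table are not independent of each other.

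Across libraries the members did not move as one. Over 23 libraries the 36 pairs of members had 30 positive Pearson r, of which 15 were at least 0.7, and all 6 negative ones involved let-7g-5p. These correlations describe log2 values that share library, depth and scaling. let-7b-5p and let-7c-5p moved almost together (r = 0.990, Spearman rho = 0.986), within each group as well (r of 0.989, 0.989 and 0.992). let-7a-5p and let-7c-5p, which differ by 1 base at another position, had r = 0.42, and 0.11 without the 4 libraries of high let-7a-5p. The part of sequence likeness in these values was not tested. let-7d-5p followed miR-98-5p (r = 0.88), which followed let-7i-5p (r = 0.84). let-7a-5p followed let-7f-5p (r = 0.83) and let-7e-5p (r = 0.79), but without the 4 libraries of high let-7a-5p these were 0.40 and 0.37.

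let-7g-5p ran opposite to let-7b-5p (r = -0.82, rho = -0.81) and to let-7c-5p (r = -0.76, rho = -0.75). Without the 4 libraries of high let-7a-5p these were -0.93 and -0.91, and on values scaled to the table total they were -0.59 and -0.54. The log2 ratio of let-7c-5p to let-7g-5p ran from -0.99 to 2.19, and let-7c-5p was the higher one in 17 of 23 libraries. By group the ratio was 0.40 ± 0.74 in Air, 0.87 ± 0.81 at 0.4 ppm and 0.16 ± 1.10 at 0.8 ppm (SD; n = 7, 8 and 8), so the spread within a group was larger than the differences between groups.

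**Figure D4:**
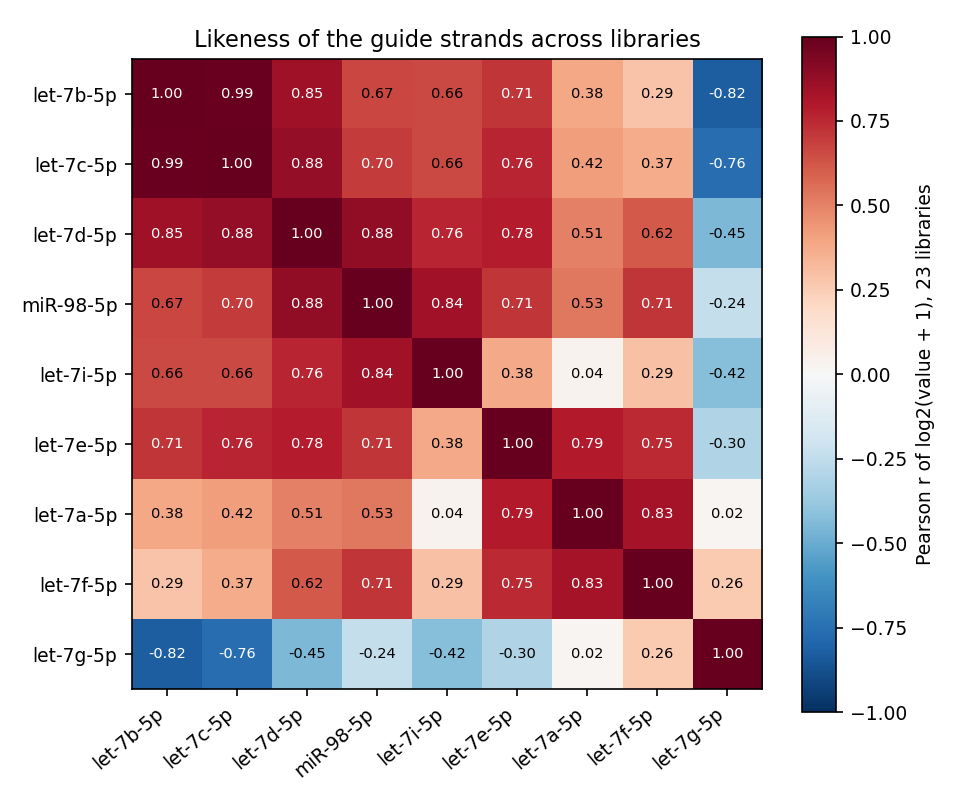
Pearson r of log2(value + 1) over 23 libraries for each pair of guide strands, from blue (negative) to red (positive). let-7b-5p and let-7c-5p have the highest r (0.99), and let-7g-5p has negative r with 6 of the other members.

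let-7b-5p, let-7c-5p and let-7g-5p varied with the number of miRNA reads recovered from the library. This relation was examined after the data were seen. In the 3 libraries with the fewest reads, 213839 to 288857, let-7b-5p stood at 4962 to 10304 and let-7g-5p at 4843 to 6865. In the 3 with the most, 1199769 to 1286613, let-7b-5p stood at 1239 to 1763 and let-7g-5p at 8530 to 8803. Each of these sets of 3 held libraries of at least 2 treatment groups, and the values did not overlap between the sets for either miRNA. Over 23 libraries, log2 let-7b-5p had r = -0.87 with log2 reads (rho = -0.86) and log2 let-7c-5p r = -0.85 (rho = -0.86). Each of these 4 values had a two-sided permutation p of 1e-05, the smallest that 100000 permutations can give, and the adjusted p of r was 0.000339 for both.

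Of the 9 members, 4 had a negative r past the threshold, namely let-7b-5p, let-7c-5p, let-7d-5p (r = -0.68, adjusted p = 0.00312) and let-7e-5p (r = -0.67, adjusted p = 0.00454). let-7g-5p had a positive one (r = 0.73, rho = 0.72, adjusted p = 0.00165). let-7a-5p, let-7f-5p, let-7i-5p and miR-98-5p did not pass (r of -0.43, -0.24, -0.41 and -0.49, adjusted p of 0.118, 0.452, 0.140 and 0.0623). By rank, miR-98-5p passed as well (rho = -0.56, adjusted p = 0.0326). By rho 6 of 9 members passed, beside 89 of the 407 miRNAs. These are permutation p-values, adjusted over 407 miRNAs, of which 24.1% were called by r, 34 with a negative and 64 with a positive r. Among the 123 abundant miRNAs 46.3% were called by r, so the 5 of 9 members called by r is close to the share of abundant miRNAs. That share was not computed for rho. It pools both directions: 24 of the 123 were called with a negative and 33 with a positive r, against 4 and 1 of the 9 members. let-7b-5p had the lowest r of all 123, and 0.813% of them were lower than let-7c-5p.

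The relation kept its sign within each treatment group for both of the miRNAs at its ends. For let-7b-5p r was -0.93 in Air, -0.73 at 0.4 ppm and -0.95 at 0.8 ppm (7, 8 and 8 libraries), and for let-7g-5p it was 0.53, 0.63 and 0.88. Leaving out the 2 libraries farthest from the median read number gave -0.89 for let-7b-5p and 0.67 for let-7g-5p, and values scaled to the table total gave -0.86 and 0.60. The fitted log2 difference per doubling of reads was -1.10 for let-7b-5p and 0.25 for let-7g-5p. An Air library held on average 727314 ± 273964 reads, one at 0.4 ppm 582918 ± 334633 and one at 0.8 ppm 747883 ± 334315 (SD; n = 7, 8 and 8), so the 0.4 ppm group, where let-7b-5p and let-7c-5p had their highest means, also had the lowest mean. The fits with log2 reads as a covariate are given with the ozone comparisons above.

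**Figure D5:**
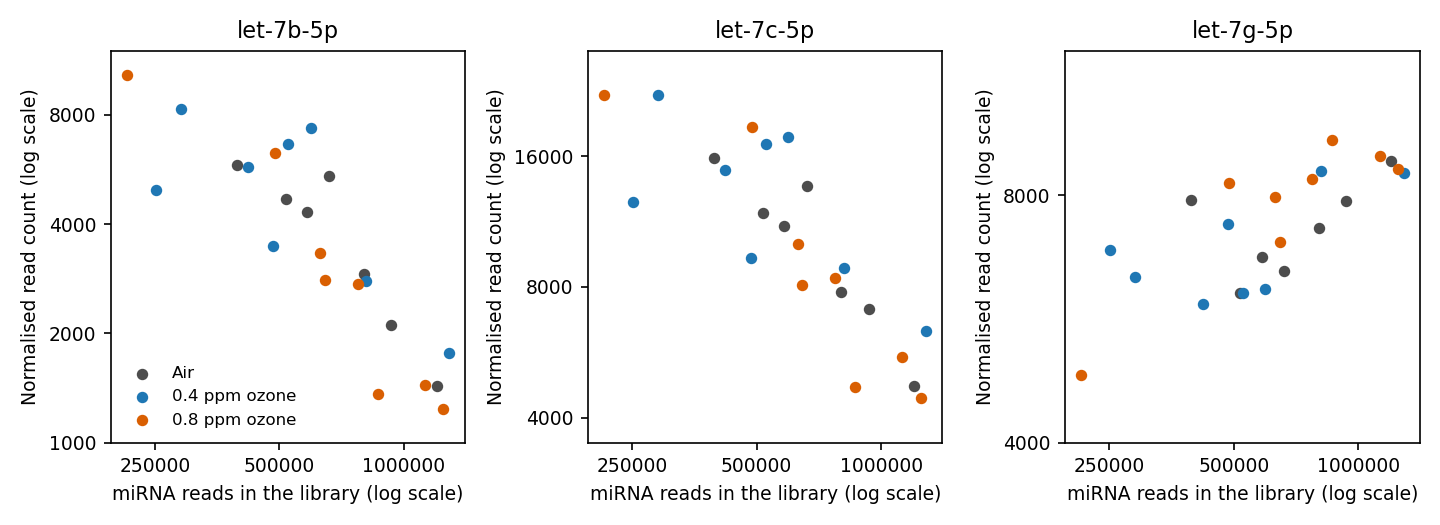
Normalised read count of let-7b-5p, let-7c-5p and let-7g-5p against miRNA reads recovered from the library (both axes log scale), with 1 point per rat coloured by group. let-7b-5p (r = -0.87) and let-7c-5p (r = -0.85) are lower and let-7g-5p (r = 0.73) is higher in libraries with more reads, in all 3 groups.

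Marker shares moved with the members as well. The family's share of the table had r = -0.88 with the germ-cell share (rho = -0.90) and r = -0.80 with log2 reads (rho = -0.84). Both shares are of one table, of which the germ-cell list held 23.6% to 51.3%, so a negative r between them is partly built in. let-7e-5p had r = -0.90 with the germ-cell share. let-7a-5p had its closest relation with the leukocyte list (r = 0.94, rho = 0.72, and 0.52 without the 4 libraries). In those 4 libraries the leukocyte list held 4.75% to 6.43% of the table, against 1.75% to 3.03% in the other 19, and the germ-cell list 23.6% to 35.0% against 29.7% to 51.3%. All 7 listed leukocyte rows were in the table, and the difference rested on miR-146b-5p, at 30783 to 45689 against 9612 to 17203. The other leukocyte rows overlapped between these libraries and the rest. miR-146a-5p stood at 798 to 1204 against 496 to 1349 and miR-155-5p at 21.8 to 67.2 against 25.3 to 98.2. miR-150-5p stood at 43.5 to 74.2 against 32.5 to 83.6 and miR-223-3p at 0 to 4.20 against 0 to 12.0. miR-142-5p stood at 101 to 268 against 218 to 476 (median 358), and miR-142-3p at 0 to 1.69 against 0.875 to 7.66 (median 4.06). For both miR-142 rows the median of the other 19 lay above all 4 of these libraries. Of the 6 muscle and stroma rows listed, 4 were in the table and those of miR-133 had no match. miR-143-3p stood at 18627 to 76738 against 9545 to 16860, while miR-145-5p (17.4 to 238 against 26.2 to 67.1), miR-1-3p (8.47 to 17.7 against 7.77 to 45.7) and miR-206-3p (5.6 to 17.7 against 4.85 to 40.1) overlapped. The part of these markers in the let-7a-5p values was not tested.

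By the naming rule, the miRNAs outside the family most like the mean of the 9 members, with group means removed, were miR-125b-2-3p (r = 0.86, rho = 0.75), miR-181d-5p (r = 0.83, rho = 0.79) and miR-151-3p (r = 0.82, rho = 0.70). The least alike were miR-872-5p (r = -0.89, rho = -0.72), miR-19b-3p (r = -0.88, rho = -0.78) and miR-463-5p (r = -0.87, rho = -0.75). Likeness was measured over 23 libraries against 113 miRNAs with a mean of at least 100. On values scaled to the table total the r of these 3 least alike was -0.61, -0.78 and -0.55 in the same order, and that of the 3 most alike 0.87, 0.86 and 0.79.

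Passenger strands, the discarded arms of the let-7 duplexes, were scarce. The table held 8 of them, and let-7d-3p was the highest at 206 ± 72.7 (SD, n = 23), while let-7b-3p averaged 3.94 ± 2.49 and let-7e-3p 1.41 ± 1.77. The guide exceeded the passenger by a log2 ratio, with 1 added to each value, of 3.09 ± 0.35 for let-7d. It was 9.13 ± 0.89 for let-7a (let-7a-1-3p), 9.69 ± 0.77 for let-7b and 9.06 ± 1.35 for let-7c (let-7c-2-3p). let-7b-3p was 0 in 1 library, so the added 1 weighs on its ratio. The let-7d ratio ran from 2.56 to 3.62 over the libraries, below every value of these 3 relatives, which were at least 7.21. By group, Air first, it was 3.08 ± 0.42, 3.13 ± 0.27 and 3.07 ± 0.39. limma called 0 of 8 passenger strands in each comparison (lowest adjusted p = 0.729), and 0 had an unadjusted p under 0.05. let-7a-1-3p and let-7c-2-3p have one and the same sequence in RefSeq, yet their rows differed in 21 of 23 libraries, so how the deposited table divided such reads is not known. The let-7a and let-7c ratios depend on that division.

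Partners made from the same clusters followed their let-7 neighbours to very different degrees. let-7e-5p and miR-125a-5p, both within Spaca6, had r = 0.85 (rho = 0.77), and let-7e-5p and miR-99b-5p of the same cluster had r = 0.64. Without the 4 libraries of high let-7a-5p, which are also the 4 highest in let-7e-5p, these r were 0.58 and -0.03. let-7c-5p had r = 0.80 with miR-125b-2-3p and 0.31 with miR-99a-5p, which also lie together. The first value was not particular to this cluster. With group means removed, let-7d-5p and miR-98-5p, of other chromosomes, had r = 0.80 and 0.72 with miR-125b-2-3p. let-7a-5p had r = 0.50 with miR-100-5p and 0.63 with miR-125b-1-3p, and 0.10 and 0.27 without the 4 libraries of high let-7a-5p. let-7d-5p had r = 0.74 with its own passenger strand. Of the 10 partner rows of the miR-99, miR-100 and miR-125 families, 9 had a positive log2 fold change at 0.4 ppm against Air (median 0.39) and 7 at 0.8 ppm (median 0.18). Over all miRNAs 48.2% and 51.1% were positive. Partner rows of one cluster or hairpin are not independent, and miR-99a-3p and miR-99b-3p were near the floor, with means of 2.13 and 2.18. limma called 0 of the 10 in each comparison (lowest adjusted p = 0.729). At 0.8 ppm against Air, 1 of the 10 had an unadjusted p under 0.05, miR-125b-5p (0.59 ± 0.26 on the log2 scale, SE, with a limma unadjusted p of 0.0273 and adjusted p of 0.993).

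Of 34 genes listed as makers, blockers or known targets of let-7, 2 were in the deposited transcript table, which holds 617 tested rows from small RNA libraries and so measures fragments rather than whole mRNAs. Tgfbr1, a TGF-beta receptor, stood at a normalised value of 2.01 ± 0.79 in Air, 3.44 ± 1.6 at 0.4 ppm and 4.41 ± 1.74 at 0.8 ppm (SD; n = 7, 8 and 8). The ranges overlapped, from 0.933 to 3.29 in Air and from 1.74 to 6.64 at 0.8 ppm. All of these values are low, so the 1 added before taking logs weighs on the fold change of Tgfbr1. Its log2 fold change at 0.8 ppm was 0.82 ± 0.29 (SE, unadjusted p = 0.00828, limma adjusted p = 0.997). Nras, a RAS protein gene, stood at 10.9 ± 6.52, 10.4 ± 6.29 and 11.5 ± 5.59, with a log2 fold change of 0.13 ± 0.46 (SE) at 0.8 ppm (limma adjusted p = 0.997). limma called 0 of the 2 for each pair of groups. In this fit 0% of the 617 rows were called in each, with 19 rows at an unadjusted p under 0.05 at 0.4 ppm against Air, 12 at 0.8 ppm against Air and 14 between the ozone levels.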

How the data were processed

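Small RNA of 23 rat cauda sperm samples was isolated with the mirVana procedure, made into libraries with the CleanTag kit and sequenced on an Illumina NextSeq, per the labels' protocols, which give RNA integrity numbers of 2 to 4 and no sequencing batch. Partek, Bowtie 1.0.0 and the build rn6 are named in the submitters' processing notes, and the sources used here do not give how reads were assigned to miRNAs and strands. The deposited miRNA and transcript values are a scaled read signal made by the authors. Low miRNA values, 249 to 298 per library, were checked, and 100% were whole multiples of 1 read within 0.1 read, which gave each library's reads. Reads of identical rows were counted in each such row, so library totals include them more than once. Levels were compared within a table only.

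limma 3.58.1 (R 4.3.3) was fitted to log2(value + 1) of miRNAs above 0 in at least 8 libraries (407 of 425), with all 3 groups in 1 model, a mean-variance trend and robust moderation. Adjusted p is Benjamini-Hochberg within a comparison, two-sided, at 0.05. A fold change on this scale understates that of low rows. Correlations with reads were tested by permutation (numpy 2.4.6) over the 407 miRNAs, and other correlations are descriptions. The scripts were tested on simulated data. Sequences and positions come from RefSeq (GRCr8). Every member is named, with the passenger strands and cluster partners that the text singles out, and the 3 miRNAs most and least like the members. The members and lists were chosen with earlier results of these data known. Replicate numbers were given in accession order and pair nothing. Alternatives were other pseudocounts, filters, scalings and tests (edgeR 4.0.16 and DESeq2 1.42.0 on recovered reads), library weights, a read covariate and leaving out rats. The piRNA and tRNA tables were not used here.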

Additional observations from a re-analysis of the deposited data

Results flagged for a closer look

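Of 30 groups of values examined, 7 held a library separated from the rest of its group by more than Dixon's 95% critical value; chance alone does this in about 1 in 20 groups, and the groups are not independent, since the same libraries recur. Air replicate 6 was high in let-7a-5p (20439), let-7e-5p (835) and let-7f-5p (15541). 0.8 ppm replicate 7 was high in let-7a-5p (18785), let-7e-5p (1793), let-7f-5p (18894) and miR-98-5p (1532). Both are among the 4 libraries whose let-7a-5p, let-7e-5p and let-7f-5p values all exceed those of the other 19.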

How the results depend on the processing

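No member passed the threshold in any of 1026 recomputed values, and the lowest adjusted p was 0.0757 (limma). Of these values 991 kept the reported sign. Leaving out a rat of the group outside a comparison cannot change its fold change. Part of the 991 was therefore fixed in advance, and that count overstates how stable the signs are. With library weights (limma), 2 miRNAs were called at 0.4 ppm against Air (miR-3590-5p and miR-429), 3 at 0.8 ppm against Air and 3 in the trend (miR-17-2-3p, miR-471-5p and miR-741-3p both times), none of them members. These log2 fold changes changed sign. At 0.4 ppm against Air, with log2 reads as a covariate, let-7b-5p stood at -0.030, let-7i-5p at -0.10, miR-98-5p at -0.029 and let-7g-5p at 0.032. let-7g-5p was also 0.043 when scaled to the table total and 0.016 with library weights. let-7i-5p was -0.0084 after quantile normalization and -0.0076 in edgeR. let-7a-5p was -0.040 without the 3 least alike libraries and -0.076 without the 4 of high let-7a-5p. At 0.8 ppm against Air, let-7d-5p was 0.013 in DESeq2, let-7f-5p -0.0058 without the 3 least alike libraries, and let-7e-5p 0.0089 when scaled to the table total, 0.13 in edgeR and 0.20 in DESeq2. At 0.8 against 0.4 ppm, let-7a-5p was 0.0022 without the 4 libraries of high let-7a-5p, and without them the r of let-7f-5p with reads was 0.25. Leaving out each rat in turn, the values at 0.4 ppm against Air ran from -0.040 (without 0.4 ppm replicate 5) to 0.28 (without Air replicate 6) for let-7a-5p and from -0.12 to 0.11 for let-7i-5p. At 0.8 ppm against Air they ran from -0.22 to 0.047 for let-7a-5p, -0.22 to 0.035 for let-7d-5p, -0.27 to 0.12 for let-7e-5p and -0.059 to 0.24 for let-7f-5p, each lowest without 0.8 ppm replicate 7 and highest without Air replicate 6. The sets of 3 and 4 libraries, the repeated rows and the read correlations were alternatives chosen after seeing the data. The cause of these changes was not tested.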
